A study of Homo sapiens with 8 samples.

Results

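The Hedgehog receptors and GLI factors comprised SMO, PTCH1, GLI1, GLI2, GLI3, HHIP, SUFU, GAS1 and BOC. They were chosen by gene symbol and made up 9 of the 16796 genes in the count files. RNA sequencing was used to measure transcripts of LX-2 cells, an established human hepatic stellate cell line with the features of myofibroblastic stellate cells (MF-HSC). The control group received the vehicle DMSO for 24 h, and over the same time the other group (OGTi) received 50 µM of the small molecule OSMI-1. This compound blocks O-GlcNAc transferase (OGT), the enzyme that attaches the sugar O-GlcNAc to proteins inside the cell. All cells grew in DMEM with 5% fetal bovine serum, and each group had 4 biological replicates of this single line. The comparison asked how inhibition of OGT changed the transcripts of MF-HSC.

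In Hedgehog signalling, a secreted ligand binds the receptor Patched, which otherwise holds the membrane protein Smoothened inactive. Released Smoothened acts in the primary cilium and frees the GLI transcription factors from their inhibitor SUFU, so that GLI proteins switch on their targets, PTCH1, HHIP and GLI1 among them. Hedgehog signalling is known in the liver for its part in the activation of stellate cells and in fibrosis.

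Libraries held between 24166756 and 28201215 counts, and 12829 to 13180 genes reached 10 counts. OGT, whose protein is the target of the inhibitor, had 5351 to 5977 normalized counts in control and 3534 to 4695 in OGTi cells, but its transcript does not measure enzyme activity. Of the 9 markers of LX-2 cells, 7 reached an average of 10 normalized counts, whereas the stellate markers DES and LRAT were near 0. The summed LX-2 markers ranged from 200060 to 238530 normalized counts in control and from 147400 to 172530 in OGTi cells. Of these, COL1A1, COL1A2, ACTA2, TAGLN, PDGFRB and THY1 were lower (log2 FC from -1.75 for ACTA2 to -0.28 for THY1). VIM, which with COL1A1 made up most of the sum, was not called (-0.09). Summed hepatocyte markers (2 of 6 at such an average, APOA1 near 0) ranged from 47.1 to 104 in control and from 184 to 297 in OGTi cells, where CYP2E1 rose (means of 41.4 and 199.8) and SERPINA1 was not called (46.8 and 44.05). For cholangiocyte markers (2 of 4, KRT19 near 0) the ranges were 681 to 1151 and 955 to 1273, with KRT7 lower (log2 FC of -1.05) and SOX9 higher (0.35). For endothelial markers (2 of 5, PECAM1 under 10) they were 47.7 to 91.1 and 17.0 to 33.8. Of these, CDH5 was lower (log2 FC of -3.31), while VWF was not called (-0.40). For macrophage and leukocyte markers (3 of 5, PTPRC under 10), which were mostly CD68, they were 2503 to 4090 and 5628 to 9405. The part of these markers in the results was not tested. In such bulk samples, fewer cells with a transcript and less of it per cell cannot be told apart.

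Transcripts of the signal transducer SMO and of the activators GLI2 and GLI1 were lower in OGTi cells, and those of the inhibitor SUFU were higher. The receptor PTCH1 was also lower, by a smaller amount. The call of GLI1 was lost without replicate 1, and that of PTCH1 without replicate 2. GLI3 was not called. Calls were made at a q of 0.05 or lower, where q is the p-value of the DESeq2 Wald test after Benjamini-Hochberg adjustment over all genes. Of the 9 members, all 9 were tested, 8 had a q and 5 were called, 4 lower and 1 higher. Among the 14028 genes with a q, 46.6% were called, 24.0% as lower and 22.7% as higher. The 2 groups of libraries did not overlap for 4 of the 9 members, against 38.0% of the 14895 genes tested. The median log2 fold change (FC) was -0.83 over the members and 0.00 over all tested genes. The members' median rests in part on low counts and ranged from -0.83 to -0.47 over the 11 alternatives. It was -0.48 in DESeq2 without the replicate block and -0.53 without replicate 2. All log2 FC are of OGTi over control and are given with the standard error of the model, and normalized counts were obtained by dividing each count by the size factor of its library.

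**Figure D1:**
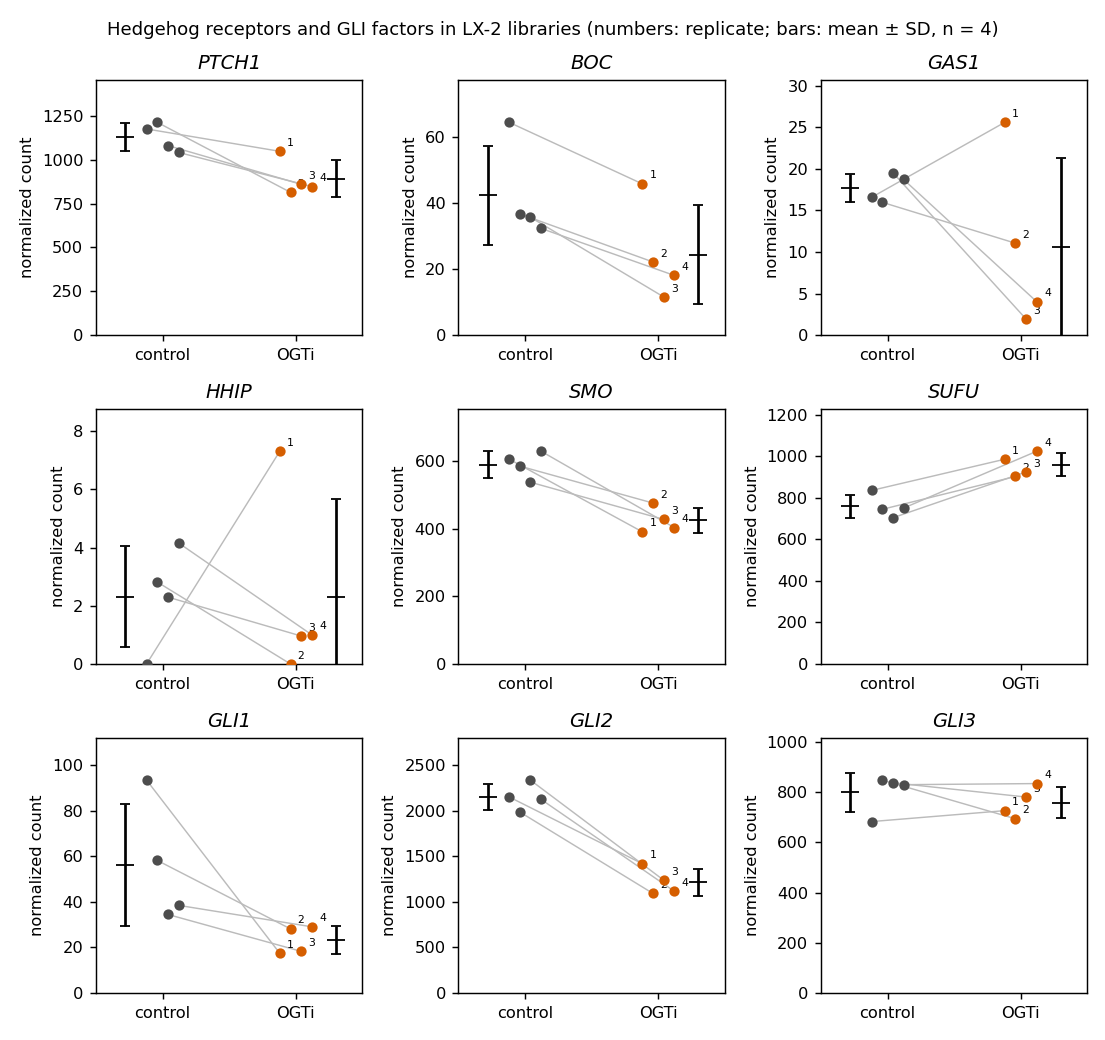
Normalized counts (y axis, from 0) of the 9 members in control and OGTi libraries. Each point is 1 library, grey lines join libraries of the same replicate number, numbers give that replicate, and bars beside the points show mean ± SD (n = 4), cut at 0 for GAS1 and HHIP. For SMO, GLI1 and GLI2 all OGTi points sit under all control points, for SUFU they sit above, and for PTCH1 the highest OGTi point (1047) is just over the lowest control point (1041).

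PTCH1 encodes the receptor that binds Hedgehog ligands and restrains Smoothened. It lies on chromosome 9, minus strand, from 95442980 to 95517057 (GRCh38). Its normalized counts were 1175, 1213, 1080.2 and 1041 in control replicates 1 to 4 and 1047, 814, 859 and 846 in OGTi replicates 1 to 4. OGTi replicates 2 to 4 were under every control, whereas OGTi replicate 1 lay just above control replicate 4, so the groups overlapped. The control mean was 1127 ± 80.0 and the OGTi mean 892 ± 106 (SD, n = 4 each). This was a log2 FC of -0.34 ± 0.10 (DESeq2 q of 0.00215), lower in 4 of 4 pairs. Without replicate 2 PTCH1 was not called (log2 FC of -0.26, DESeq2 q of 0.0719), and its q ranged from 0.00175 to 0.0719 over the 11 alternatives.

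The other cell-surface members were at low levels. BOC, a co-receptor that presents ligand to Patched (chromosome 3, 113211003 to 113287459), had 64.3, 36.6, 35.6 and 32.2 normalized counts in control replicates 1 to 4. In OGTi replicates 1 to 4 it had 45.7, 22.1, 11.5 and 18.0. Replicate 1 was the highest of its group in both, and OGTi replicate 1 exceeded 3 controls, so the groups overlapped although BOC was lower in 4 of 4 pairs. Its log2 FC of -0.89 ± 0.41 missed the threshold (DESeq2 q of 0.0622). BOC was called in 2 of 11 alternatives, and its q ranged from 0.0285 to 0.262 over them.

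GAS1, a membrane-anchored co-receptor encoded by 1 exon (chromosome 9, 86944362 to 86947506), had 16.6, 15.97, 19.5 and 18.7 normalized counts in control replicates 1 to 4. In OGTi replicates 1 to 4 it had 25.6, 11.05, 1.92 and 4.01. The controls lay close together, while OGTi replicate 1 was above every control and the other OGTi libraries were under every control. The log2 FC was -1.19 ± 0.70 (DESeq2 q of 0.159), with a 95% interval of -2.57 to 0.19.

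HHIP encodes a membrane protein that binds and sequesters Hedgehog ligands (chromosome 4, 144646156 to 144745271). It was close to undetected, with rounded counts of 0, 3, 2 and 4 in control replicates 1 to 4 and of 8, 0, 1 and 1 in OGTi replicates 1 to 4. At 3 counts or fewer in 6 of 8 libraries, no change was detectable at this depth. It received no q in DESeq2, and its log2 FC was -1.05 ± 1.69. Its direction turned in 3 alternatives. HHIP overlaps another annotated gene on the same strand, so its few reads are uncertain.

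SMO encodes Smoothened, the membrane protein that carries the signal into the cell (chromosome 7, plus strand, 129188633 to 129213545). Its normalized counts were 605, 584, 537 and 628 in control replicates 1 to 4. In OGTi replicates 1 to 4 they were 390.2, 475, 427 and 403. The highest OGTi library stayed under the lowest control, so the groups did not overlap. The mean fell from 589 ± 39.0 to 424 ± 37.5 (SD, n = 4 each). In the model SMO fell by 28.1%, a log2 FC of -0.48 ± 0.12 (DESeq2 q of 0.000420), and it was lower in 4 of 4 pairs. SMO was called in 11 of 11 alternatives.

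SUFU, the cytoplasmic protein that binds and restrains GLI factors (chromosome 10, plus strand, 102503972 to 102633535), was the only member called higher. Its normalized counts were 835, 744, 703 and 749.9 in control replicates 1 to 4 and 985, 902, 924 and 1024 in OGTi replicates 1 to 4. Each OGTi library was above each control. The mean rose from 758 ± 55.3 to 959 ± 55.8 (SD, n = 4 each). In the model SUFU rose by 26.5% (log2 FC of 0.34 ± 0.10, DESeq2 q of 0.00186), seen in 4 of 4 pairs. SUFU was called in 11 of 11 alternatives, and the highest q was 0.0486.

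GLI2, a zinc-finger factor that acts mainly as an activator of Hedgehog targets, had the largest absolute Wald statistic of the 9 members. It lies on chromosome 2, plus strand, from 120735623 to 120992653. Its normalized counts were 2154, 1989, 2339 and 2127 in control replicates 1 to 4 and 1420.1, 1093, 1239 and 1117 in OGTi replicates 1 to 4. The groups were far apart, since the highest OGTi library had 1420.1 and the lowest control 1989. The mean fell from 2152 ± 144 to 1217 ± 150 (SD, n = 4 each, 1.77-fold lower in the model). The log2 FC was -0.83 ± 0.09 (DESeq2 q of 2.91e-19). It ranged from -0.90 to -0.79 over the 11 alternatives, and GLI2 was called in each of them.

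GLI1, an activator that is itself a target of GLI factors and is used as a readout of the pathway (chromosome 12, plus strand, 57459785 to 57472268), was at a low level. Its normalized counts were 93.5, 58.2, 34.5 and 38.5 in control replicates 1 to 4 and 17.4, 28.1, 18.3 and 29.0 in OGTi replicates 1 to 4. The groups did not overlap, but the controls were spread widely and replicate 1 held both the highest control and the lowest OGTi value. The control mean was 56.2 ± 26.98 and the OGTi mean 23.2 ± 6.24 (SD, n = 4 each). The log2 FC was -1.20 ± 0.41 (DESeq2 q of 0.00979), 2.296-fold lower in the model. Without replicate 1 GLI1 was not called (log2 FC of -0.79, DESeq2 q of 0.203), and its q ranged from 0.00295 to 0.203 over the 11 alternatives.

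GLI3, the family member best known as a repressor after proteolytic processing, did not pass the test. It lies on chromosome 7, minus strand, from 41960949 to 42264100. Its normalized counts were 683, 848, 838 and 830.0 in control replicates 1 to 4 and 727, 694, 781 and 834 in OGTi replicates 1 to 4. The lowest library of all was control replicate 1 and the groups overlapped, with 2 pairs higher and 2 lower. The log2 FC was -0.07 ± 0.11 (DESeq2 q of 0.603), with a 95% interval of -0.28 to 0.13. GLI3 was called in 0 of the 11 alternatives, and its unadjusted DESeq2 p was 0.488.

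**Figure D2:**
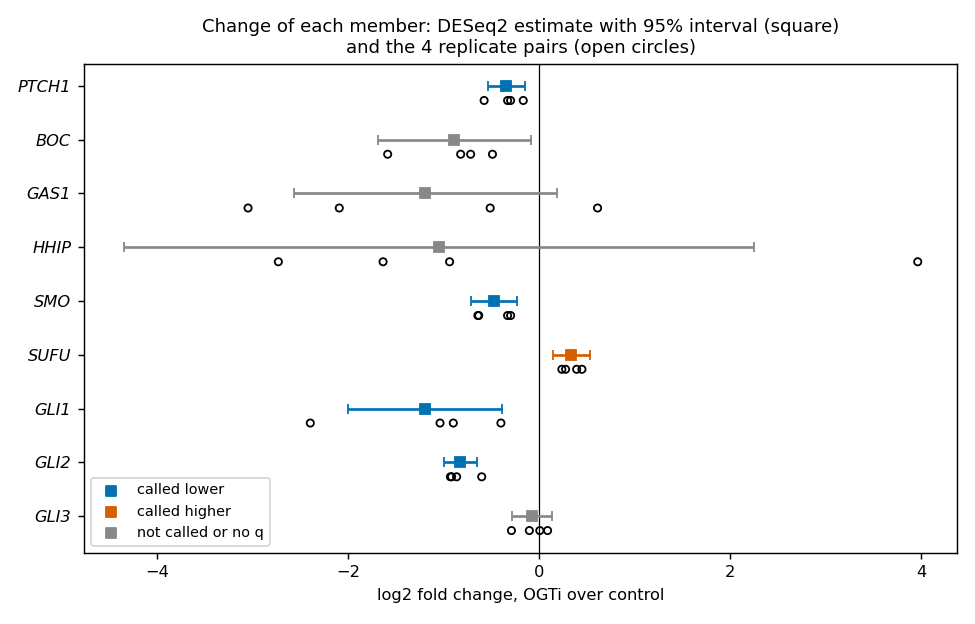
Log2 FC of OGTi over control (x axis) for each member. Squares with bars are the DESeq2 estimate and its 95% interval, coloured by call, and open circles are the 4 replicate pairs. GLI2 has the narrowest interval, from -1.001 to -0.65, whereas HHIP runs from -4.35 to 2.25.

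Per kilobase of the canonical transcript, GLI2 was the most abundant member in control cells, at 302 ± 20.2 normalized counts per kilobase (SD, n = 4). SUFU (151 ± 11.02), SMO (148 ± 9.80), PTCH1 (130.1 ± 9.24) and GLI3 (95.2 ± 9.31) followed on the same scale. GLI1 (14.1 ± 6.79), BOC (9.23 ± 3.25), GAS1 (5.63 ± 0.54) and HHIP (0.23 ± 0.17) were much lower. The ranges of SUFU and SMO, of SMO and PTCH1, and of GLI1 and BOC overlapped, so the order within these neighbours lay inside the spread of the libraries. In OGTi cells SUFU came first, at 191 ± 11.1 normalized counts per kilobase, and GLI2 followed at 171 ± 21.0. The ranges of these neighbours overlapped. SMO (107 ± 9.43), PTCH1 (103 ± 12.2) and GLI3 (90.3 ± 7.34) came next, and the range of SMO overlapped that of PTCH1 and the range of PTCH1 that of GLI3. GLI1 (5.84 ± 1.57), BOC (5.32 ± 3.25), GAS1 (3.38 ± 3.403) and HHIP (0.23 ± 0.34) were again the lowest, and neighbours among these 4 overlapped. These levels assume that all reads came from the canonical transcript.

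**Figure D3:**
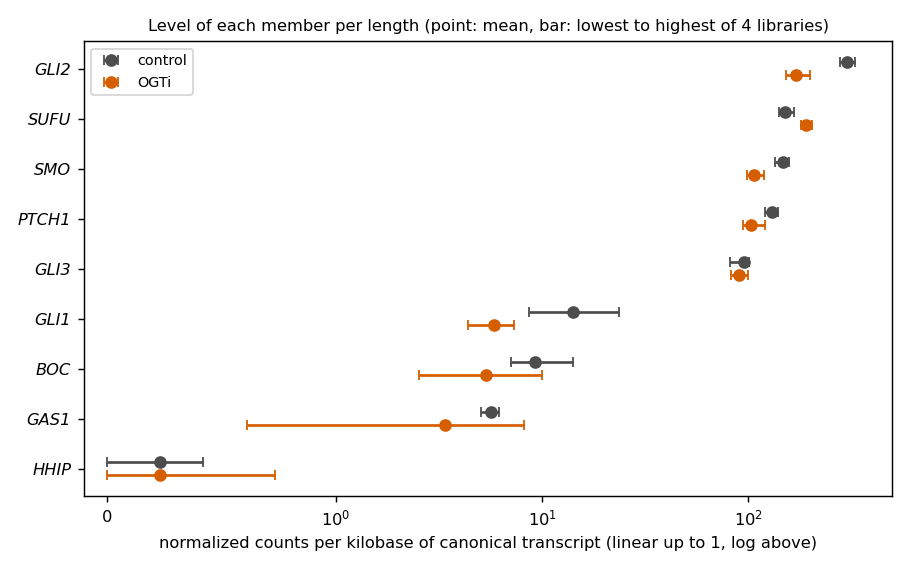
Normalized counts per kilobase of canonical transcript (x axis, linear up to 1 and logarithmic above) for each member in control and OGTi cells. Points are means and bars run from the lowest to the highest of 4 libraries. GLI2 is the highest in control (302) and SUFU the highest in OGTi cells (191), and HHIP lies under 1 in both.

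A ratio of 2 members within a library does not depend on the size factor and tests whether they changed unequally. The log2 ratio of GLI2 to GLI3 was 1.66, 1.23, 1.48 and 1.357 in control replicates 1 to 4 and 0.97, 0.65, 0.67 and 0.42 in OGTi replicates 1 to 4. Every OGTi library was under every control. The mean fell from 1.43 ± 0.18 to 0.68 ± 0.22 (SD, n = 4 each), so that the ratio itself went from 2.70 to 1.60. The two-sided exact permutation p was 0.0286, the smallest that 4 against 4 libraries allow. Its q over the 3 ratios was 0.0857, above the threshold. No lower q was possible, because neither of the other ratios reached that smallest p. The q therefore cannot decide whether this ratio changed. The log2 ratio of GLI3 to SUFU was 0.07 ± 0.25 in control and -0.34 ± 0.09 in OGTi cells, lower in 4 of 4 pairs (exact permutation p of 0.0571, q of 0.0857). The log2 ratio of PTCH1, the receptor, to SMO, which it restrains, was 0.94 ± 0.14 in control and 1.07 ± 0.27 in OGTi cells, with an exact permutation p of 0.343 and 3 of 4 pairs higher.

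**Figure D4:**
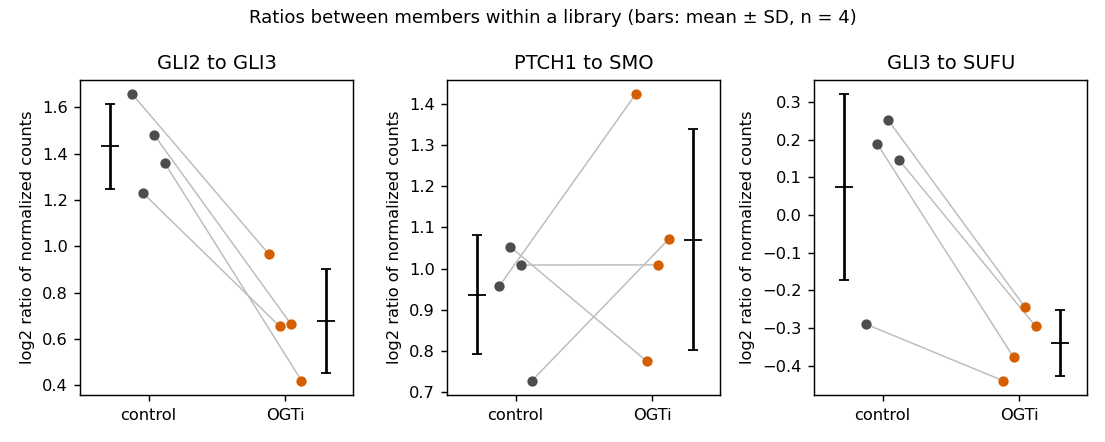
Log2 ratio of normalized counts of 2 members (y axis, a scale of its own in each panel) in control and OGTi libraries. Points are libraries, grey lines join replicate pairs and bars show mean ± SD (n = 4). The ratio of GLI2 to GLI3 lies between 1.23 and 1.66 in control and between 0.42 and 0.97 in OGTi cells.

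Of the 5 promoters of PTCH1, a classical target of GLI factors, the 1 with a match to the GLI consensus is shown. The GLI consensus GACCACCCA was searched on both strands from 250 bases before to 50 bases after each start in the RefSeq promoter table (GRCh38.p14), which matched 7 of the 9 members with 13 promoters. GLI1 and GLI3 had no entry. The motif stood in 1 of the 13 member promoters, 1 of the 5 promoters of PTCH1, and in 83 of all 35116 promoters (0.236%). It is printed in capitals as TGGGTGGTC, its form on the opposite strand, with its first base at position -172 from the start. This start lies inside the annotated gene, which runs from 95442980 to 95517057. The 250 bases before that start are chr9:95509267-95509516 on the minus strand, 5′ to 3′:
PTCH1: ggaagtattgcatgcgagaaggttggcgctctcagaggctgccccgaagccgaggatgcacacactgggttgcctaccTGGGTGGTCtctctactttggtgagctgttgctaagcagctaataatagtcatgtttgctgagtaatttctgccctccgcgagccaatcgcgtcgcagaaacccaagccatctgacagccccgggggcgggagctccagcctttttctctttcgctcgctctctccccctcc
GGAATG, the core recognised by TEAD factors, stood in 14.0% of all promoters and among the members only in that of SMO. A match is a description of the letters and not a site of binding, and no binding was measured here.

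Other genes of the pathway, in 5 lists, moved in both directions. Of their 63 genes with counts, 60 had a q and 29 were called (48.3%), 14 higher and 15 lower, near the 46.6% of all genes. For each list below, the shares to compare with are 22.7% called higher and 24.0% called lower among all genes. No list was tested against these shares. The median log2 FC of their 62 tested genes was -0.07. The genes named by rule were, in each list, up to 4 with the largest absolute Wald statistic among those averaging at least 50 normalized counts, which only DISP1 and HHAT did among the ligand genes, and the others were named after their values were seen.

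Among genes for ligands and their release, 1 of 4 with a q was called higher and 0 lower. DISP1, the transporter that releases ligand from the producing cell, had a log2 FC of 0.95 ± 0.17 (DESeq2 q of 1.78e-07). HHAT, which attaches palmitate to the ligands, did not pass the test (-0.01 ± 0.28), nor did SCUBE2 and SCUBE3. The ligands IHH and DHH were near 0, with means of 2.27 and 3.23 normalized counts in control cells and no q. The median of the 6 tested genes was -0.45 and turned sign, to 0.05, in an alternative, so it gives no direction. SHH and SCUBE1 were not analysed here.

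Among other receptors and Smoothened regulators, 6 of 12 were called higher and 4 lower, with a median log2 FC of 0.20. EVC, which works with EVC2 downstream of Smoothened in the cilium, rose (0.92 ± 0.09, DESeq2 q of 9.96e-22), and so did EVC2 (0.77 ± 0.15). CDON, a co-receptor of the same family as BOC, rose from 471 to 667 mean normalized counts (log2 FC of 0.50 ± 0.12), and ATP6AP2, ARRB2 and GPC5 were the other genes called higher. GPR161, a ciliary receptor that restrains the pathway, fell (-1.02 ± 0.14, DESeq2 q of 6.39e-13). ARRB1, a beta-arrestin, fell as well (-0.90 ± 0.10, DESeq2 q of 3.02e-17). GRK2, a kinase that phosphorylates Smoothened, had a log2 FC of -0.56 ± 0.08 (DESeq2 q of 1.86e-11), and MGRN1 was the fourth gene called lower. MGRN1 was called in only 2 of 11 alternatives (q of 0.0480 to 0.244), while GPR161, ARRB1 and GRK2 were called in all 11. Without replicate 4, ARRB2 and ATP6AP2 were not called, nor was ARRB2 without replicate 3. GPC3 was not analysed here.

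Among genes for GLI processing and turnover, 3 of 12 were called lower and 0 higher, with a median log2 FC of -0.10 that was -0.05 without replicate 3. PRKACA, a catalytic subunit of the protein kinase A that marks GLI factors for processing, fell (-0.61 ± 0.07, DESeq2 q of 2.17e-17). KIF7, a ciliary kinesin that regulates GLI factors, had a log2 FC of -0.46 ± 0.10. FBXW11, a ubiquitin ligase subunit, had one of -0.31 ± 0.08. SPOP, an adaptor for GLI degradation, was at -0.22 ± 0.10 and missed the threshold (DESeq2 q of 0.0546).

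Among genes of primary cilium transport, 3 of 16 were called higher and 1 lower. The median log2 FC was -0.06 and turned sign, to 0.0037, without replicate 3, so it gives no direction. The carrier adaptor TULP3 (0.43 ± 0.08) and the intraflagellar transport genes WDR19 (0.52 ± 0.10) and IFT80 (0.44 ± 0.11) rose. C2CD3, a centriolar gene needed for cilium assembly, fell (-0.51 ± 0.10, DESeq2 q of 4.49e-07).

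Among 17 reported GLI target genes, 4 were called higher and 7 lower. The median log2 FC was -0.24, but -0.03 without replicate 3. NKX2-2 fell (-1.36 ± 0.33, DESeq2 q of 0.000139), as did BMP4, a secreted growth factor (-0.78 ± 0.11), and FOXM1, a cell-cycle factor (-0.37 ± 0.06). BMI1 (-0.92 ± 0.26), ABCG2, CCNE1 and IGFBP6 were the other genes called lower. SPP1, which encodes osteopontin, rose from 26.3 to 94.8 mean normalized counts (log2 FC of 1.79 ± 0.32, DESeq2 q of 1.23e-07). CCND1 (0.80 ± 0.29), SNAI1 (0.55 ± 0.14) and FOXL1 (0.30 ± 0.12) were called higher too. MYCN was not analysed here. Without replicate 2, and likewise without replicate 4, 2 of these targets were called higher and 4 lower. NKX2-2, BMP4, FOXM1, BMI1, SPP1 and SNAI1 were called in 11 of 11 alternatives. CCND1, FOXL1, CCNE1, IGFBP6 and ABCG2 were each lost without replicate 2 and without replicate 4. FOXL1 and CCNE1 were also lost without replicate 1, ABCG2 without replicate 3, and IGFBP6 without the block.

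**Figure D5:**
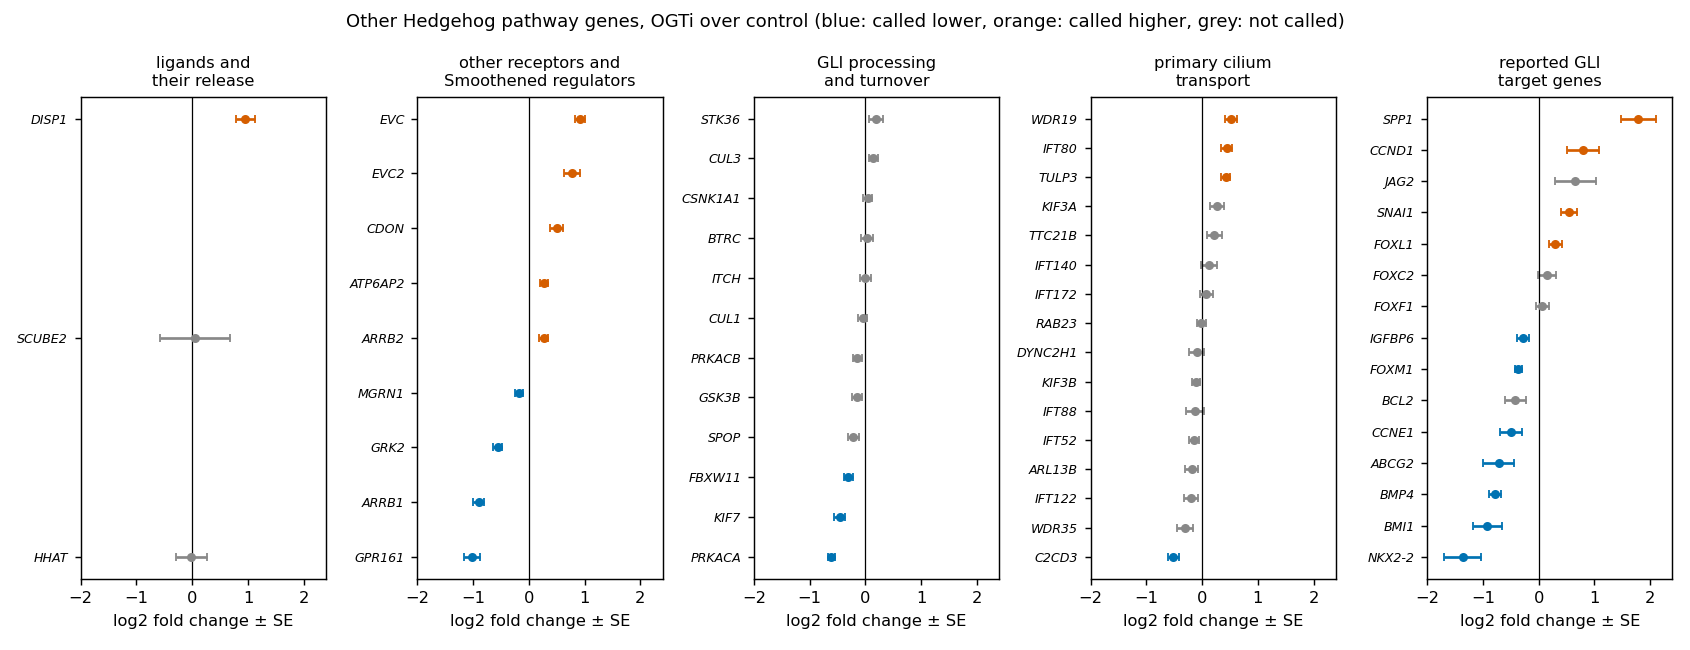
Log2 FC of OGTi over control ± SE (x axis) for genes of the 5 pathway lists that averaged at least 10 normalized counts, apart from those not reported here. Orange points were called higher, blue points lower and grey points were not called. Each list but the ligands and GLI processing holds genes called in both directions, from NKX2-2 at -1.36 to SPP1 at 1.79.

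The tested genes nearest to each called member with a mean of at least 50 were found by the root mean square difference of centred log2 profiles over the 8 libraries, among 11701 genes. VEGFB (0.042), MGAT4B (0.047) and BATF3 (0.054) were nearest to SMO. GTF2A2 (0.058), PFDN4 (0.060) and PPP4R3B (0.063) were nearest to PTCH1. PFAS (0.077), USP5 (0.077) and GALNT6 (0.079) were nearest to GLI2, and ZMYM1 (0.046), EMC7 (0.053) and NRBP1 (0.056) to SUFU. No member was among the nearest genes of another member.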

How the data were processed

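RNA of LX-2 cells (4 control and 4 OGTi samples) was enriched with oligo-dT and made into stranded libraries. Per the labels and methods, the authors aligned reads to hg38 with Bowtie2 2.3.5.1 and deposited 1 file per library of expected counts, the estimated counts per gene from RSEM 1.3.1, not scaled for depth. The authors' table of means, fold changes and p-values from DESeq2 1.36.0 was not used.

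Expected counts were rounded, genes with a total under 10 were dropped, and the groups were compared in R 4.3.3 with DESeq2 1.42.0 (Wald test, two-sided, median-of-ratios size factors, replicate number as a block, independent filtering, q of 0.05 or lower). The study's methods pair samples of 1 replicate, and the block was taken from them. Deviations from the group means of libraries of the same number correlated at 0.373, 0.288, 0.127 and 0.261 across 11702 genes. However, control replicate 3 was closer to OGTi replicate 4 (0.254), and OGTi replicate 3 was closer to control replicate 4 (0.196). The pairing of replicates 3 and 4 thus rests on the labels and the study's methods. No library was a copy of another of its own group, and copies across the groups were not looked for. Ratios used log2 of normalized counts plus 0.5 and a two-sided exact permutation test. Alternatives were other normalization and filters, edgeR 4.0.16, no block, and leaving out each replicate. The fit was tested on simulated data with changes only in genes averaging at least 50 counts. That simulation gave all genes the same dispersion and had no differences between replicates. It therefore does not cover the 4 members under 50 counts.

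Genes named by rule were the members and up to 4 per pathway list by absolute Wald statistic (mean of at least 50). The rule also named 3 nearest profiles per called member with such a mean. Other pathway genes were named after their values were seen. The members and lists were chosen with earlier results of these data known. Positions and lengths came from GENCODE release 44 (GRCh38), matched by symbol. Some genes counted in the lists are not reported here by name. Counting error and replicate spread limit the precision, most for members under 50 counts.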

Additional observations from a re-analysis of the deposited data

Results flagged for a closer look

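In 60 gene-by-group sets of 4 libraries (the 9 members, 18 named pathway genes and 3 ratios in each group), the highest or lowest library stood apart from the others by Dixon's criterion at the 95% level in 5, where chance gives about 3. In control cells, GLI3 was lowest in replicate 1, at 683 normalized counts against 830.0 to 848 in the others. BOC was highest in control replicate 1, at 64.3 against 32.2 to 36.6. HHIP was highest in OGTi replicate 1, at 7.31 against 0 to 1.002. ARRB1 was highest in OGTi replicate 1, at 936 against 638 to 667. GPR161 was highest in control replicate 3, at 652 against 525 to 543.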

How the results depend on the processing

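Of the 98 values for members under the alternatives, 91 kept their direction and their side of the threshold. GLI1 was lost without replicate 1 (range without each replicate -1.47 to -0.79) and PTCH1 without replicate 2 (-0.40 to -0.26), and the cause was not tested. BOC was called in edgeR with the replicate block (-0.86, q of 0.0285) and with at least 10 counts in at least 4 libraries (-0.88, q of 0.0470 in DESeq2). HHIP turned sign with no replicate block (0.017 in DESeq2, 0.047 in edgeR) and without replicate 2 (0.11, range -2.38 to 0.11), and it had no value under the stricter filter. Of the named pathway genes, HHAT turned sign without replicate 4 (-0.16 to 0.20 without each replicate), and SPOP was called in 3 alternatives. Leaving out the block in DESeq2 changed no call among the members. The ratio of GLI2 to GLI3 kept its size with the replicate block (-0.75, exact sign-flip p of 0.125, the smallest 4 pairs allow) and without each replicate (-0.81 to -0.69), but neither design can reach 0.05. The median of other receptors and Smoothened regulators moved to 0.14 under the stricter filter. Genes of primary cilium transport called lower went from 1 to 2 in edgeR with the block. Reported GLI targets called higher went from 4 to 2, and those called lower from 7 to 4, without replicate 2 and without replicate 4. The members called ranged from 4 to 6 and all genes called from 5127 to 7074. Low counts limit GLI1, BOC, GAS1 and HHIP, and changes of HHIP cannot be seen at this depth.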
